A study of Mus musculus with 8 samples.

Results

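The SOCS family feedback regulators are 4 genes, Socs1, Socs2, Socs3 and Cish, taken as every row of the bead signal table whose identifier is one of those names (SOCS1, SOCS2, SOCS3 and CISH as the array spells them). All 4 were found, each as a single identifier, among the 31492 identifiers on the array. Total RNA from intestinal intraepithelial lymphocytes (IEL), T cells that lie between the epithelial cells of the gut, was measured on 8 Illumina mouse bead arrays, on which each gene is read as the mean brightness of many beads carrying one probe sequence. IEL of C57BL/6 mice were cultured for 48 h on plate-bound anti-CD3, an antibody that triggers the T cell receptor complex, at 1 µg/ml together with interleukins 2, 3, 4 and 15. They were then held for 14 days in interleukin 2 alone, sorted, and collected at 0 h or after 24 h of renewed anti-CD3 at 1 µg/ml. The 4 groups were CD8αβ IEL at 0 h, CD8αβ IEL at 24 h, CD8αα IEL at 0 h and CD8αα IEL at 24 h, with 2 arrays in each. All groups therefore share the first stimulation and the culture in interleukin 2. The CD8αβ cells carried the αβ T cell receptor, whereas the labels give the receptor of the CD8αα cells in different ways, as γδ in the protocol and design text, so that subset is called here by its CD8 chains. No sample was held for 24 h without anti-CD3, so the effect of anti-CD3 and that of 24 h more in culture cannot be told apart. Nothing in the labels ties the replicates to separate animals or cultures, so p-values reflect only how far these samples vary, which could be technical variation.

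SOCS proteins are the classical negative feedback of cytokine signalling. A cytokine that binds its receptor activates JAK kinases, these phosphorylate STAT transcription factors, and STAT factors switch on genes that include those of the SOCS family. The SOCS proteins then bind the receptor or the kinase through an SH2 domain, and recruit a ubiquitin ligase through a second domain, the SOCS box. Cish and Socs2 are known as genes that follow STAT5, the factor downstream of interleukin 2. Socs1 is known for restraining the interferon γ and interleukin 2 receptor families. Socs3 is known for restraining receptors of the interleukin 6 family through their gp130 chain, and is itself a STAT3 gene.

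The start regions of the genes are shown because STAT factors are known to bind the palindrome TTCNNNGAA, and because Socs1 is known for interferon response elements, of which GAAANNGAA is the core. RefSeq promoter windows on build GRCm38.p6, from 250 bases before the annotated start to 50 bases after it, were matched for 3 of the 4 genes. The Cish window lies at chr9:107296409-107296708 on the plus strand, the Socs3 window at chr11:117969317-117969616 on the minus strand and the Socs1 window at chr16:10785487-10785786 on the minus strand. Each sequence is written 5′ to 3′ on the strand of its gene, and capitals mark the matches to either motif.
Cish: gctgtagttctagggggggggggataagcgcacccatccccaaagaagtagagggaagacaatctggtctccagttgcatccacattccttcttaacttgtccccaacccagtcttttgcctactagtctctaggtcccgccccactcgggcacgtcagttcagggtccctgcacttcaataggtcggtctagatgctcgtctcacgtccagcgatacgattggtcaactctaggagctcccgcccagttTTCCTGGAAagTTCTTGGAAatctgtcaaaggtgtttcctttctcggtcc
Socs3: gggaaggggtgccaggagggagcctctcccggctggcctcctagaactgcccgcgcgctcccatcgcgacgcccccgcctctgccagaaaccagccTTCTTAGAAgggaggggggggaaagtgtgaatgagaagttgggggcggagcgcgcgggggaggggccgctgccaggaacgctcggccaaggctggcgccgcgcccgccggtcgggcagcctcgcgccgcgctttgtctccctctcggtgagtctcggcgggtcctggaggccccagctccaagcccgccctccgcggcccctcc
Socs1: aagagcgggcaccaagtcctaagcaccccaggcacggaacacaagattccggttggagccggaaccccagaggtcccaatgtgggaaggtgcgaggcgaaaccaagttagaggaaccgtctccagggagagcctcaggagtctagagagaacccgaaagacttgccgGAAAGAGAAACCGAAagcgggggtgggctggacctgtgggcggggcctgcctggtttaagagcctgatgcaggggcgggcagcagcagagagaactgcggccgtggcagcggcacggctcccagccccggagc
The Cish window held 2 matches to TTCNNNGAA, TTCCTGGAA at bases 1 to 9 and TTCTTGGAA at bases 12 to 20 counted from the annotated start. The Socs3 window held 1 such match, TTCTTAGAA, at bases −154 to −146. The RefSeq span of Socs3 is chr11:117966079-117970336, so this window lies inside the gene span and counts from a start downstream of its 5′ end. For Cish and Socs1 the start is the 5′ end of the span. The Socs1 window held no match to TTCNNNGAA and 2 overlapping matches to GAAANNGAA, which began 83 and 77 bases before the start. Both strands were searched, and no match to one motif overlapped a match to the other. TTCNNNGAA occurred in 8.3% of all 32851 promoter windows of the reference and occurred at least 2 times in 0.457% of them, while GAAANNGAA occurred in 8.56% and at least 2 times in 0.624%. A match is a description of the letters and does not show that a factor binds there.

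**Figure D1:**
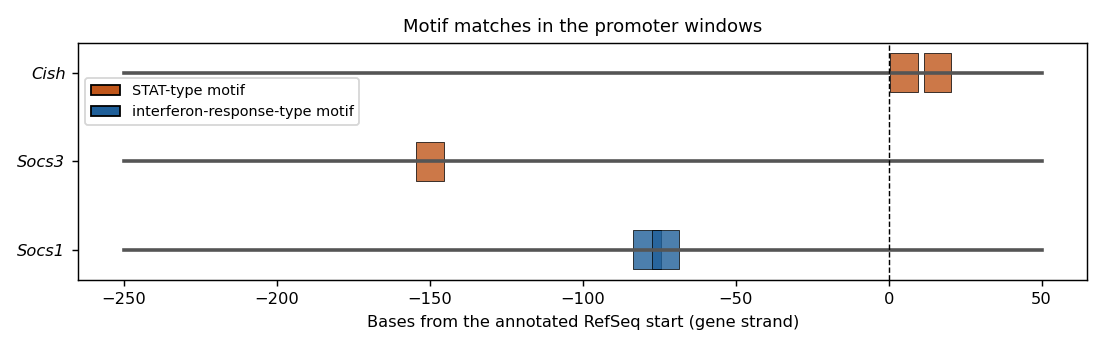
Positions of motif matches in the RefSeq promoter windows of Cish, Socs3 and Socs1, in bases from the annotated start on the strand of the gene (dashed line at the start). The start used for Socs3 lies inside its RefSeq gene span. Orange boxes mark TTCNNNGAA and blue boxes GAAANNGAA: Cish has 2 of the first kind just after the start, Socs3 has 1 and Socs1 has 2 overlapping ones of the second kind.

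All 4 genes were read above the negative control beads of the array on all 8 arrays, and all 4 passed the filter on dim signals that kept 8912 of the 31492 identifiers. Per array, 7747 to 9119 identifiers were detected (24.6 to 29%). The median signals were 71.1 to 82.04, near the background means of 65.93 to 75.95, so they do not show how bright detected genes were. In CD8αβ replicate 1 the raw Cish signal at 24 h was 0.756 of that at 0 h, while its log2 change after normalization was 0.04. Normalization therefore shapes the changes given below. The 2 arrays of a group correlated across the kept identifiers with r between 0.9547 and 0.9636. The arrays sat on 2 chips, and replicate 2 of the CD8αα subset, at both times, made up the whole of the second chip. Cd8b1, the chain that defines the CD8αβ sort, read 6304 to 12715 in CD8αβ IEL and 590.4 to 1378 in CD8αα IEL, where it was not at background. Cd8a was at background on all 8 arrays, although all were of sorted CD8+ cells, so that its probe gives no check of the sort. Cd3d, Cd3e, Cd3g and Cd247, the chains of the CD3 complex, were detected on all 8 arrays, and Cd4 was detected on 0.

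Among the 4 regulators, Socs3 changed and the others were not called. Socs3 was higher after 24 h on anti-CD3 in both subsets, 4.807-fold in CD8αβ IEL and 4.163-fold in CD8αα IEL. Cish gave bright signals in every group and moved by at most 1.167-fold between any pair of groups compared directly. Socs1 and Socs2 varied more between the arrays of one group than between the group means in several comparisons. In the text below a level is a normalized log2 signal, a change is a difference of such levels, and a test is passed at an adjusted p under 0.05.

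**Figure D2:**
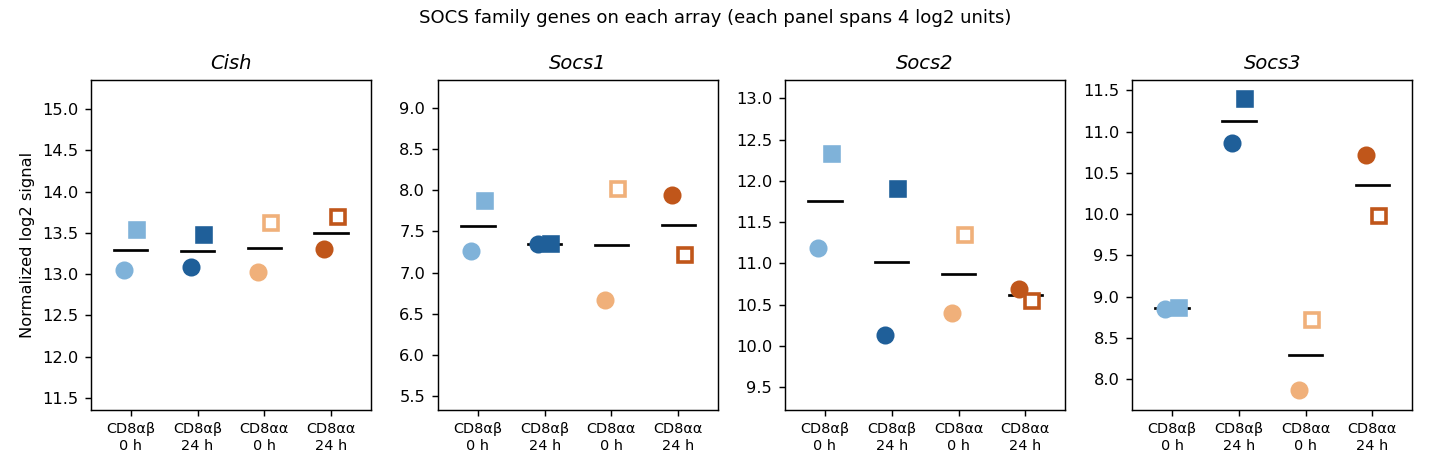
Normalized log2 signal of each gene on every array, by group, with each panel spanning 4 log2 units. Circles are replicate 1 and squares replicate 2, open symbols are arrays of the second chip, and bars are the means of 2 arrays: Socs3 separates by time in both subsets, whereas the arrays of Socs1, Socs2 and Cish overlap.

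In CD8αβ IEL the raw bead signal of Socs3 was 607 and 460.3 at 0 h, against 1485 and 2520 at 24 h. In CD8αα IEL it was 341.2 and 469 at 0 h and 2155 and 976.9 at 24 h. Each of the 4 arrays at 24 h was thus brighter than each of the 4 at 0 h, before any normalization, and the same held after it, as for 32% of all kept identifiers. A single array's bead-to-bead standard error was 2.233 to 3.652% of the Socs3 signal, from 33 to 47 beads, which is far below the differences between arrays of one group.

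After normalization the Socs3 levels in CD8αβ IEL were 8.85 and 8.87 at 0 h and 10.86 and 11.39 at 24 h. Those in CD8αα IEL were 7.86 and 8.71 at 0 h and 10.72 and 9.97 at 24 h. The groups at 24 h and at 0 h did not overlap in either subset, although 55.9% of all kept identifiers did not overlap between times in CD8αβ IEL and 59% in CD8αα IEL, so that non-overlap alone is common with 2 arrays. Ordered by mean, Socs3 was highest in CD8αβ IEL at 24 h (11.12 ± 0.38, SD, n = 2), then in CD8αα IEL at 24 h (10.35 ± 0.53), in CD8αβ IEL at 0 h (8.86 ± 0.01) and in CD8αα IEL at 0 h (8.29 ± 0.60). No neighbours in that order shared overlapping arrays. The steps between subsets at one time did not pass the test, and the middle step, between a subset at 24 h and the other at 0 h, was not tested.

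In CD8αβ IEL Socs3 rose by 2.27 on the log2 scale (SE 0.38, 95% interval 1.36 to 3.17, limma adjusted p = 0.0432). It was 1 of the 4 regulators called, beside 2.41% of all 8912 identifiers called in this response and 1.41% called as higher. In CD8αα IEL it rose by 2.06 (SE 0.38, interval 1.15 to 2.96, limma adjusted p = 0.0302), where 8.37% of all identifiers were called and 3.41% were called as higher. Averaged over the subsets, which uses all 8 arrays and does not by itself show that both moved, the rise was 2.16 (SE 0.27, interval 1.52 to 2.80, limma adjusted p = 0.00545), beside 26.4% of identifiers called. These changes lie beyond the spread between replicate arrays, which reached 0.85 in the level of Socs3 within one group.

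The rise had the same sign in every pair of arrays with the same number. It was 2.01 and 2.53 in CD8αβ IEL, and 2.86 on the first chip and 1.26 on the second in CD8αα IEL. The chips thus gave unlike sizes in CD8αα IEL, from 1 array at each time on each. On the arrays of the first chip alone the fitted changes were 2.27 in CD8αβ IEL (adjusted p = 0.0648) and 2.86 in CD8αα IEL (adjusted p = 0.185), so that neither passed, while the averaged rise was 2.56 (adjusted p = 0.0372).

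The call in each subset rested on few arrays. In CD8αβ IEL the adjusted limma p was 0.202 without replicate 1 and 0.159 without replicate 2 at 0 h, 0.182 and 0.0972 without replicate 1 and 2 at 24 h, and 0.0582 without either CD8αα array at 0 h. In CD8αα IEL it was 0.0948 and 0.107 without replicate 1 and 2 at 0 h, 0.124 and 0.0587 at 24 h, and 0.0556 without either CD8αβ array at 0 h. With the background fitted on all identifiers the adjusted p was 0.0749 in CD8αβ IEL and 0.143 in CD8αα IEL, where the rise was 1.36, and with no filter on dim signals the adjusted p was 0.0932 and 0.081. The direction held under all 17 alternatives in both subsets, and the averaged rise was called under all 17, with changes of 1.77 to 2.56 and adjusted p of 0.00134 to 0.0372.

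**Figure D3:**
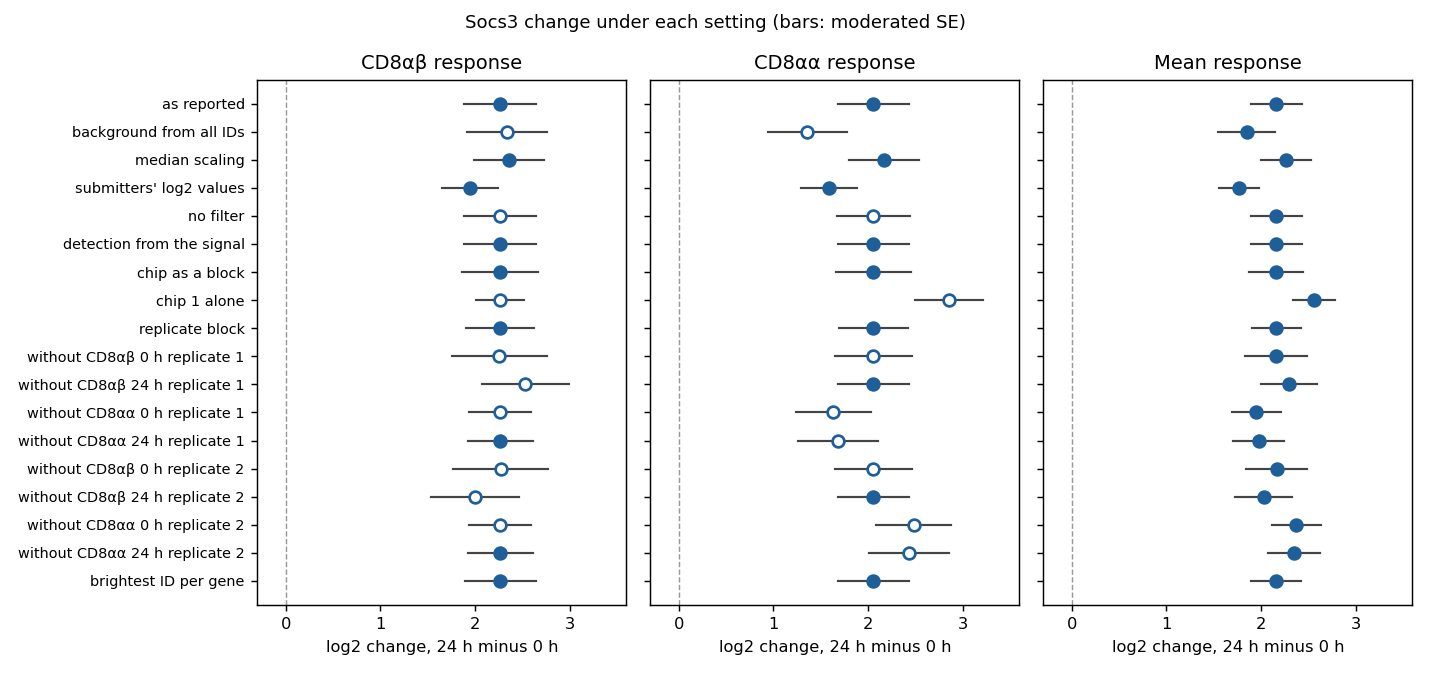
Change of Socs3 from 0 h to 24 h (log2) as reported and under each of 17 alternative settings, in CD8αβ IEL, in CD8αα IEL and averaged over both. Bars are moderated standard errors, filled circles passed an adjusted p under 0.05 and open circles did not: each estimate lies above 0, each subset's call held under 8 of 17 alternatives and the averaged call under all 17.

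The responses of Socs3 were not found to differ between the subsets. The CD8αα rise minus the CD8αβ rise was −0.21 (SE 0.53, interval −1.49 to 1.07, limma adjusted p = 1), an interval that leaves room for a difference of over 1 log2 unit either way. No identifier at all was called in that comparison (0%), and 147 (1.65%) had an unadjusted p under 0.05. The CD8αα minus CD8αβ difference of Socs3 was −0.57 at 0 h (SE 0.38, interval −1.47 to 0.33, limma adjusted p = 0.861) and −0.78 at 24 h (SE 0.38, interval −1.68 to 0.13, limma adjusted p = 1). The arrays of the subsets did not overlap at either time, as for 38.3% of all identifiers at 0 h and 22.7% at 24 h. Averaged over times, that difference was −0.67 (SE 0.27, interval −1.31 to −0.03), with an unadjusted limma p of 0.0416, in a comparison where 8.79% of identifiers had one under 0.05, and an adjusted p of 0.535. None of the 4 regulators passed between the subsets at 0 h, at 24 h or averaged over times, where 0.516%, 0.337% and 0.999% of all identifiers did.

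Cish encodes the founding member of the family, which acts on the interleukin 2 receptor and on T cell receptor signalling. Its raw signal in CD8αβ IEL was 9803 and 11217 at 0 h and 7407 and 10582 at 24 h. In CD8αα IEL it was 9464 and 11740 at 0 h and 12063 and 12413 at 24 h. The times overlapped in CD8αβ IEL, while both CD8αα arrays at 24 h were brighter than both at 0 h. The bead standard error was 1.655 to 2.897% of the Cish signal, from 41 to 53 beads. After normalization the times overlapped in both subsets, the levels spanned 0.67 over all 8 arrays, from 13.02 to 13.69, and replicate 2 was the higher array in each of the 4 groups.

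Cish changed by −0.02 in CD8αβ IEL (SE 0.31, interval −0.75 to 0.71, limma adjusted p = 0.981), a sign that turned to 0.12 by median scaling, and by 0.18 in CD8αα IEL (SE 0.31, interval −0.55 to 0.91, limma adjusted p = 0.733). Its CD8αα response minus its CD8αβ response was 0.19 (SE 0.43, interval −0.84 to 1.23). Between the subsets it differed by 0.03 at 0 h and 0.22 at 24 h, each inside the replicate spread, and the first turned to −0.14 by median scaling. These results do not show Cish to be constant. Its averaged change was 0.08 with an interval of −0.44 to 0.60, which does not reach the averaged rise of Socs3, whose interval began at 1.52.

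Socs2, a feedback regulator known mainly for growth hormone signalling, varied widely. In CD8αβ IEL its raw signal was 2840 and 4516 at 0 h and 901.1 and 3542 at 24 h. In CD8αα IEL it was 1616 and 2498 at 0 h and 2119 and 1426 at 24 h. The array with the lowest signal, CD8αβ replicate 1 at 24 h, and the array with the highest, CD8αβ replicate 2 at 0 h, differed 5.012-fold, and in each subset the times overlapped. The normalized levels within a group differed by 1.14 and 1.77 in CD8αβ IEL and by 0.95 and 0.15 in CD8αα IEL.

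Socs2 changed by −0.74 in CD8αβ IEL (SE 0.66, interval −2.31 to 0.83, limma adjusted p = 0.527) and by −0.26 in CD8αα IEL (SE 0.66, interval −1.82 to 1.31, limma adjusted p = 0.818). In CD8αβ IEL both pairs of arrays with the same number were lower at 24 h, by −1.06 and −0.42. In CD8αα IEL the pairs went opposite ways, with 0.29 on the first chip and −0.81 on the second. Averaged over times, the CD8αα minus CD8αβ difference of Socs2 was −0.64 (SE 0.46, interval −1.75 to 0.47, limma adjusted p = 0.806). These intervals are wide, and a fall of Socs2 by more than 1 log2 unit lies inside that of each response.

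Socs1, a direct inhibitor of JAK kinases, gave signals nearer to the background of the arrays. In CD8αβ IEL its raw signal was 239.1 and 262.2 at 0 h and 164.4 and 199.6 at 24 h. In CD8αα IEL it was 179.6 and 318.4 at 0 h and 339.4 and 189 at 24 h. In raw signal both CD8αβ arrays at 24 h lay below both at 0 h, whereas the CD8αα arrays overlapped between times and their order was reversed between the replicates. The background means of the arrays were 65.93 to 75.95, and the bead standard error was 5.041 to 9.387% of the Socs1 signal.

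Normalization removed the raw separation of Socs1 in CD8αβ IEL, where the levels became 7.27 and 7.87 at 0 h and 7.35 and 7.35 at 24 h. In CD8αα IEL they were 6.66 and 8.01 at 0 h and 7.94 and 7.22 at 24 h. Socs1 changed by −0.22 in CD8αβ IEL (SE 0.48, interval −1.36 to 0.93, limma adjusted p = 0.818) and by 0.24 in CD8αα IEL (SE 0.48, interval −0.90 to 1.38, limma adjusted p = 0.767). The CD8αα pairs gave 1.27 on the first chip and −0.79 on the second, so the mean change describes neither. The CD8αα response minus the CD8αβ response was 0.46 (SE 0.68, interval −1.16 to 2.07, limma adjusted p = 1).

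**Figure D4:**
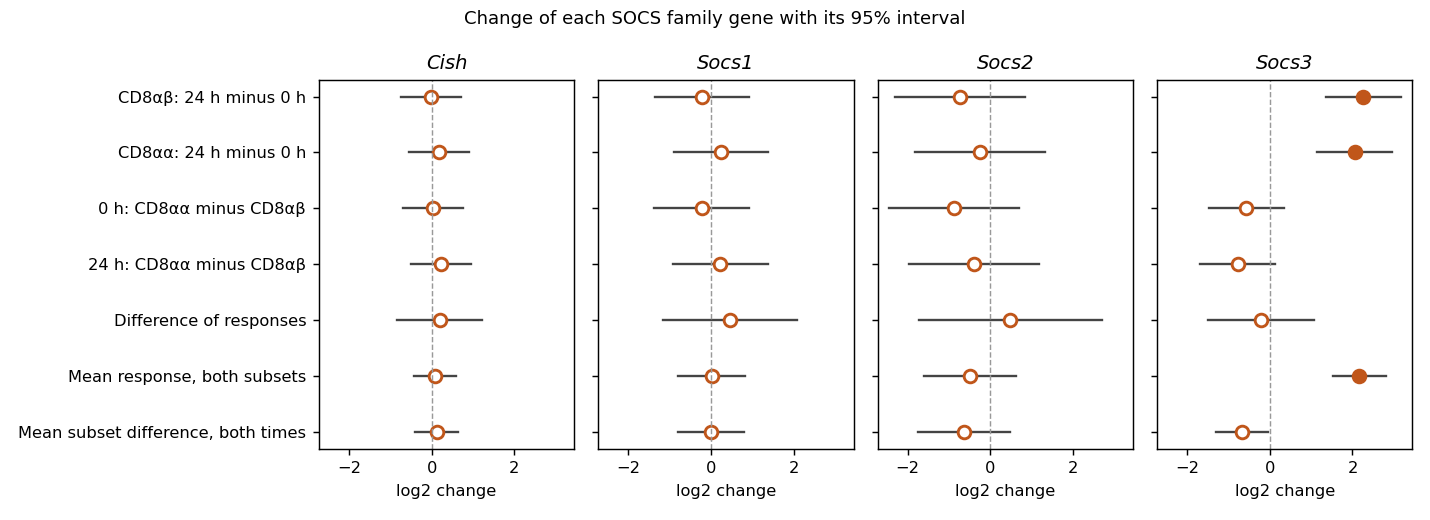
Log2 change of each gene in the 7 comparisons, with 95% intervals from the limma fit across 8912 identifiers. Filled circles passed an adjusted p under 0.05 and open circles did not: Socs3 passed in CD8αβ IEL, in CD8αα IEL and in their mean response, and the other 3 genes passed in none of the 7.

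Set beside each other, the members' median change was −0.12 in CD8αβ IEL and 0.21 in CD8αα IEL, against −0.03 and 0.00 over all kept identifiers. Across the 8 arrays, which share their normalization, Pearson's r between members was highest for Socs1 and Cish (0.53), followed by Socs2 and Cish (0.471) and Socs1 and Socs2 (0.465). Socs3 correlated with Socs1, Cish and Socs2 at 0.213, 0.156 and −0.06. These are descriptions over 8 arrays in 4 groups.

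The named genes whose profile over the 8 arrays was most like each member's were ranked by Pearson's r among 7402 other named identifiers. Nearest to Socs3 were Pla1a (0.979), Rffl (0.972) and Rrbp1 (0.969). Rrbp1, which encodes a ribosome-binding protein of the endoplasmic reticulum, had levels of 7.54 to 7.77 on the arrays at 0 h. Its levels were 8.65 to 9.09 at 24 h. Rffl had levels of 4.61 to 4.80 at 0 h and 5.15 to 5.68 at 24 h, while Pla1a spanned only 4.93 to 5.24. Socs7, which was at background by its signal on all 8 arrays, had group means of 4.81 to 5.19. Pla1a, and Rffl at 0 h, were thus near background. Nearest to Cish were Wars2 (0.989), Purb (0.979) and Nmd3 (0.964). Wars2, with levels of 4.85 to 5.33, was also near background. Each of these genes, like Cish, was higher on replicate 2 than on replicate 1 in every group, so the likeness follows the replicates. Nearest to Socs2 were Cfl1 (0.95), 2010001H16Rik (0.948) and Fut4 (0.944), and nearest to Socs1 were Rps6ka4 (0.903), Npm3-ps1 (0.901) and Dusp10 (0.897).

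Of 7 other genes with a SOCS box, 5 passed the filter, and none was called in either subset (median change 0.01 in CD8αβ IEL and 0.39 in CD8αα IEL). With 2.41% and 8.37% of all identifiers called in those responses, no call among so few genes says little about them. Socs7, 1 of the 5, was at background by its signal on all 8 arrays, and the medians of the other 4 were 0.26 and 0.13. Wsb2 and Asb2 were called in the averaged response, where 26.4% of all identifiers were, and are named here with their values seen. The calls held under 11 of 17 alternatives for Wsb2 and 10 of 17 for Asb2. Wsb2 had levels of 9.16 and 8.46 in CD8αβ IEL at 0 h, then 10.16 and 9.80 at 24 h, while the CD8αα levels were 9.15 and 9.01, then 9.63 and 9.85. It rose by 0.91 averaged over subsets (SE 0.20, limma adjusted p = 0.0198). Asb2, which encodes the substrate-binding part of another ubiquitin ligase, fell by 2.60 averaged over subsets (SE 0.57, limma adjusted p = 0.0206). Its raw signal was 4801 and 799 in CD8αβ IEL at 0 h, then 531.9 and 286.1 at 24 h, while the CD8αα signals were 23483 and 13138, then 1960 and 2818. The CD8αα arrays lay above the CD8αβ arrays for Asb2 at both times, where the subsets did not overlap for 38.3% of all identifiers at 0 h and 22.7% at 24 h. Its subset difference averaged over times was 2.79 (SE 0.57, limma adjusted p = 0.112) and was not called.

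Socs4 was higher at 24 h in each pair of arrays with the same number but was not called, with an averaged change of 0.45 (SE 0.14, limma adjusted p = 0.0513). Socs5 and Socs6 were not kept by the filter, which uses the deposited detection p. By its signal Socs5 was above the single-probe background on all 8 arrays, with levels of 6.94 and 7.07 in CD8αα against 5.95 and 6.13 in CD8αβ IEL at 0 h, and of 6.15 to 6.36 on the 4 arrays at 24 h. When detection was read from the signal, the CD8αα minus CD8αβ difference of Socs5 at 0 h was 0.97 (SE 0.17, limma adjusted p = 0.108). Of the 6 genes for the ubiquitin ligase partners of the SOCS box, all passed the filter (medians 0.15 and 0.40). None was called in either subset, beside 2.41% and 8.37% of all identifiers. Cul2, named after its value was seen, rose by 0.53 in the averaged response (SE 0.14, limma adjusted p = 0.0333), as 1 of 6 beside the 26.4% of all identifiers. That call held under 7 of 17 alternatives, and the change was 0.02 with the background fitted on all identifiers.

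The cytokines, receptors and kinases upstream of the family were read from lists of pathway genes. Of 15 cytokines that signal through JAK and STAT, 8 were kept. Their median fitted change was 3.68 in CD8αβ IEL and 3.40 in CD8αα IEL, or 3.28 and 2.69 with genes at background in 1 group set at their bound. By signal, Il2, Il3, Il10 and Il13 were detected on both arrays of a group only at 24 h. The filter thus kept such genes through the time at which they were high, so these medians do not measure a rise of the list. In CD8αβ IEL 1 rose and 0 fell, and in CD8αα IEL 2 rose and 0 fell, beside 1.41% and 3.41% of all identifiers called as higher. Il3, the gene of interleukin 3, was at background on both CD8αα arrays at 0 h and reached 3053 and 1206 at 24 h, at least 39.25-fold higher (limma adjusted p = 0.0188). In CD8αβ IEL it was detected on 1 of 2 arrays at 0 h and read 19086 and 3670 at 24 h (log2 change 7.81, SE 0.82, limma adjusted p = 0.0146). Ifng, the gene of interferon γ and so of a signal that Socs1 is known to restrain, rose by 5.36 in CD8αα IEL (SE 1.21, limma adjusted p = 0.0464), a call that held under 6 of 17 alternatives. Its change in CD8αβ IEL was 4.33 (adjusted p = 0.0958), where replicate 2 at 0 h already read 9678 against 677.5 in replicate 1. Csf2 changed by 5.23 in CD8αβ and by 3.80 in CD8αα cells (limma adjusted p = 0.0566 and 0.0693), and passed under 4 and 3 of the 17 alternatives. Averaged over subsets Csf2 rose by 4.51 (SE 0.74, limma adjusted p = 0.00994). Il2 was at background on both CD8αβ arrays at 0 h and at least 3.602-fold higher at 24 h (limma adjusted p = 0.308, not called). In CD8αα IEL, where it was detected on 1 of 2 arrays at 0 h, it changed by 1.09 (adjusted p = 0.568).

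Of 24 receptor chains 14 were kept, with 1 higher and 1 lower in CD8αβ IEL and 2 higher and 2 lower in CD8αα IEL (medians −0.03 and −0.02), beside 2.41% and 8.37% of all identifiers called. Il2ra, the inducible chain of the interleukin 2 receptor, rose by 2.65 in CD8αβ IEL (SE 0.38, limma adjusted p = 0.0327) and by 3.05 in CD8αα IEL (SE 0.38, limma adjusted p = 0.0152), calls that held under 8 and 11 of 17 alternatives. Ifngr1, the ligand-binding chain of the interferon γ receptor, fell by 1.80 (SE 0.23, limma adjusted p = 0.0257) and by 1.53 (SE 0.23, limma adjusted p = 0.0238). Il10ra rose by 1.39 in CD8αα IEL (limma adjusted p = 0.0277), and Ifnar2, named after its value was seen, fell there by 1.33 (limma adjusted p = 0.038). Il4ra was not kept by the filter.

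Of 10 JAK and STAT genes 7 were kept (medians 0.27 and −0.35). Stat5a alone was called in either subset, beside 2.41% and 8.37% of all identifiers called. Its levels were 7.19 and 6.96 in CD8αβ IEL at 0 h, against 9.80 and 9.74 at 24 h, and those in CD8αα IEL went from 7.33 and 6.29 to 9.52 and 9.36. It rose by 2.69 in CD8αβ IEL (SE 0.34, limma adjusted p = 0.0226) and by 2.63 in CD8αα IEL (SE 0.34, limma adjusted p = 0.0169). These calls held under 12 and 13 of 17 alternatives, with rises of 0.88 and 0.65 when the background was fitted on all identifiers. In the averaged response 2 of the 7 were called, a share near the 26.4% of all identifiers. Stat3, the factor that Socs3 is known to follow and named after its value was seen, rose there by 0.81 (SE 0.20, limma adjusted p = 0.0285). That call held under 8 of 17 alternatives. Of 13 other negative regulators of the pathway 7 were kept (medians −0.06 and −0.19). None was called in CD8αβ IEL, and 1 was called in CD8αα IEL, where Pias1, which encodes an inhibitor of STAT factors, fell by 1.10 (SE 0.23, limma adjusted p = 0.0403). With 8.37% of all identifiers called there, 1 of 7 is near the background, and the call held under 8 of 17 alternatives.

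Of 16 genes known to follow interleukin 2 and STAT5, as Cish does, 15 were kept, and 4 rose and 0 fell in each subset, beside 1.41% and 3.41% of all identifiers called as higher. These were Il2ra, Gadd45b, Bcl2l1 and Tnfrsf4, the last named after its values were seen. The list was chosen with earlier results of these data known, so its count of calls is not a test of the list. Gadd45b, a stress-response gene, rose by 2.98 and 2.72 in CD8αβ and CD8αα IEL (limma adjusted p = 0.0334 and 0.0251). Bcl2l1, which encodes the survival protein Bcl-xL, rose by 1.59 and 1.57 (limma adjusted p = 0.0409 and 0.0254). With the background fitted on all identifiers the rises were 0.60 and 0.90 for Gadd45b and 0.26 and 0.21 for Bcl2l1, and over the 17 alternatives the calls held under 11 and 12 for Gadd45b and under 6 and 10 for Bcl2l1. In the averaged response, where 26.4% of all identifiers were called, 6 of the 15 rose and 2 fell. Those that fell were Bcl2, which encodes another survival protein (by 1.12, SE 0.24, limma adjusted p = 0.0196), and Ccnd3, which encodes a D-type cyclin (by 0.98, SE 0.24, limma adjusted p = 0.029), both named after their values were seen. These 2 calls held under 10 and 8 of 17 alternatives. The list's median change was 0.65 in CD8αβ IEL and 0.81 in CD8αα IEL. Cish, outside this list, changed by −0.02 and 0.18 on the same arrays.

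Of 17 genes known to follow interferon γ, 12 were kept. None was called in CD8αβ IEL, while 1 rose and 2 fell in CD8αα IEL, with list medians of −0.38 and −0.44, beside 2.41% and 8.37% of all identifiers called. Irf8 rose by 3.33 (SE 0.52, limma adjusted p = 0.0249), Irf1 fell by 1.68 (SE 0.31, limma adjusted p = 0.0304), and Irf7 was at least 1.402-fold lower at 24 h, where it was at background (limma adjusted p = 0.0255). In CD8αβ IEL Irf8 changed by 2.76 (adjusted p = 0.0507) and Irf1 by −1.61 (adjusted p = 0.053), which passed under 6 and 7 of 17 alternatives. In CD8αα IEL the calls of Irf8, Irf1 and Irf7 held under 11, 9 and 8 of them. Of 11 targets of STAT3 and STAT6 5 were kept (medians 0.27 and 0.86, the latter 0.54 with Ccr4 at its bound), and only Ccr4 was called, in CD8αα IEL, where it was at least 1.439-fold higher (limma adjusted p = 0.0302, held under 7 of 17 alternatives) and was at background at 0 h. No gene of these lists was called between the subsets or in the difference of responses, where 0.337 to 0.999% and 0% of all identifiers were.

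The calls of listed genes within a subset, 7 in CD8αβ IEL and 15 in CD8αα IEL, rested on few arrays and on the background setting. Leaving out 1 array of the subset itself kept 0 to 2 of each. In CD8αβ IEL, 0 were kept without replicate 1 at either time, and 1 and 2 without replicate 2 at 0 h and at 24 h. In CD8αα IEL, 2 and 1 were kept without replicate 1 at 0 h and at 24 h, and 0 without replicate 2 at either time. Leaving out an array of the other subset kept 4 to 6 of the 7 and 8 to 13 of the 15. With the background fitted on all identifiers 1 and 5 were kept, with no filter on dim signals 1 and 4, and on the first chip alone 2 and 0. That background shifted the fold change, up or down, by a factor of over 1.5 in 7 of the 7 and 12 of the 15. It took the log2 changes of Irf7, Ccr4 and Ifnar2 in CD8αα IEL to −0.04, 0.05 and −0.11. No listed gene's call turned sign under any of the 17.

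**Figure D5:**
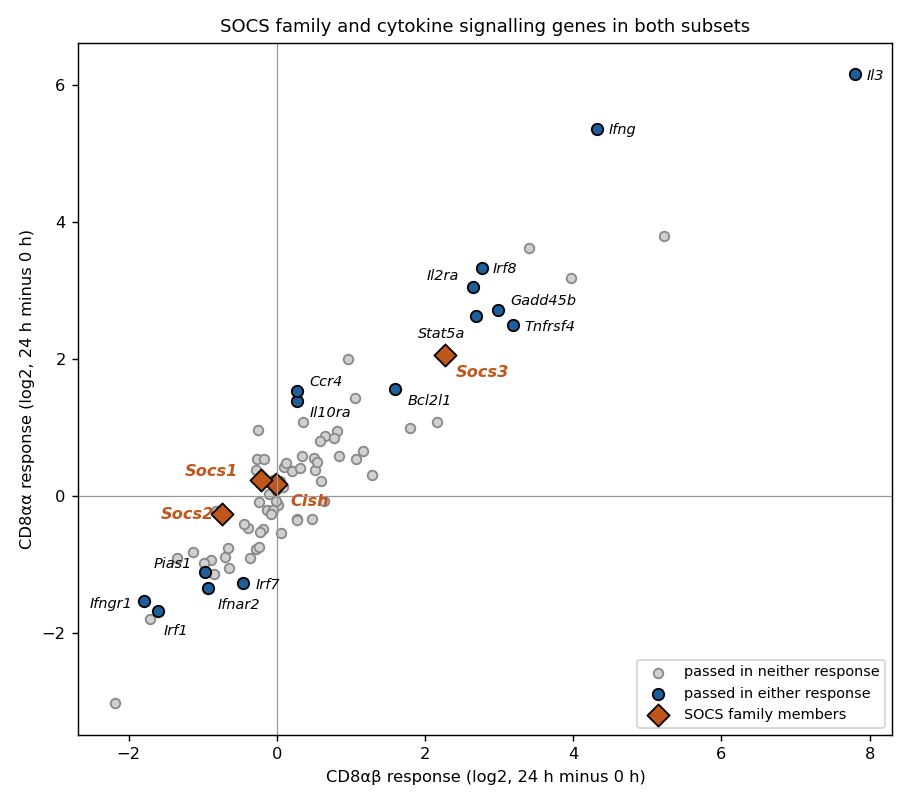
Log2 change from 0 h to 24 h of the SOCS family genes (orange diamonds) and of the listed cytokine signalling genes that passed the filter, in CD8αβ IEL (horizontal) and CD8αα IEL (vertical). Blue points passed an adjusted p under 0.05 in either subset: Socs3 lies at over 2 log2 units on both axes, with Stat5a, Gadd45b, Il2ra and Tnfrsf4 among the blue points there. Cish and Socs1 lie near 0.

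Markers of T cells and of other cells moved with time beside these changes. Of 8 T cell markers 7 were detected in CD8αβ IEL and 6 in CD8αα IEL. The summed raw signal of all 8 in CD8αβ IEL was 43540 to 51290 at 0 h and 23080 to 33150 at 24 h. In CD8αα IEL it was 42030 to 44020 and then 22990 to 28620. The brightest markers weigh most in such sums. In normalized mean levels of CD8αβ IEL, Cd3d, Cd3e, Cd3g, Cd2 and Cd8b1 were lower at 24 h. Cd247 instead went from 8.89 to 9.16 there, and Cd5 from 8.82 to 9.66. In CD8αα IEL each detected T cell marker had a lower mean level at 24 h. Of 4 B cell markers Igh-6 and Cd79b were detected and the defining Ms4a1 and Cd79a were at background on all 8 arrays. Their sum was 582.0 to 837.0 at 0 h and 342.7 to 380.8 at 24 h in CD8αβ IEL, and 2126 to 3036 and 663.9 to 776.3 in CD8αα IEL. Of the 3 natural killer markers Klrd1 was detected on 8 arrays, Klrb1c on 5 and Ncr1 on 0, with sums of 4391 to 6046 and 2779 to 3065 in CD8αβ IEL and of 5858 to 9781 and 4190 to 6784 in CD8αα IEL. Of the epithelial markers only Cdh1 was detected, and of the myeloid markers Cd14 and Cd68, each on 3 arrays. Each of these sums was lower at 24 h, with overlap between times for the natural killer markers in CD8αα IEL, while Socs3 was higher, and their part in the result was not tested. In such bulk RNA fewer cells of a type and less RNA per cell cannot be told apart.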

How the data were processed

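Total RNA of 8 samples was measured on Illumina bead arrays. The intensity values deposited by the authors are mean bead signals per identifier, not normalized per the file headers, and come with a bead standard error, a detection p-value and the average number of beads (held here as a score, since it is fractional where an identifier averages several probes). The submitters' deposited log2 values, made with lumi per the submitters' processing notes (no version given in the sources used here), served as an alternative. Background was corrected with limma 3.58.1 in R 4.3.3, using the normexp model, an offset of 16 and the 22828 identifiers read as single-probe, followed by quantile normalization and log2. The filter kept identifiers whose detection p was under 0.01 on both arrays in at least 1 group. The limma fit used all 8 arrays and 1 mean for each group (4 residual degrees of freedom), with Benjamini-Hochberg adjustment over 8912 identifiers in each of 7 comparisons. "At least" folds use the lowest detected level of the array. The bead number bears on the precision of a single array's signal, not on the spread between the arrays of a group. Besides the members, up to 3 genes per list with the lowest p and 1 moving the other way were named, with Il2, Il3, Csf2, Ifng, Il2ra and Il4ra always given. Identifiers were given current symbols by Entrez ID (10669), accession (5494), the platform table (5401) or equality with a symbol (373), and 9555 stayed unnamed. The model was also run on simulated data with independent errors. That run does not cover the shared deviation of same-numbered arrays seen here (r of 0.532 to 0.698). The members and lists were chosen with earlier results of these data known. A few genes of the lists are not reported here.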

Additional observations from a re-analysis of the deposited data

How the results depend on the processing

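The averaged Socs3 rise was called under all 17 alternatives, and no other member was called in any of the 7 comparisons under any of them. With the background fitted on all identifiers, with no filter on dim signals and on the first chip alone, 0 members were called in either response, and leaving out 1 array gave 0 to 1 in each. The lost calls are in the fits with fewer arrays or more identifiers tested, while the cause under the other background was not tested. Counts of identifiers called were 215 (CD8αβ response), 746 (CD8αα response), 46 (subsets at 0 h), 30 (subsets at 24 h), 0 (difference of responses), 2351 (averaged response) and 89 (averaged subset difference). In that order, leaving out 1 array gave 5 to 175, 0 to 577, 3 to 37, 0 to 17, 0 to 0, 987 to 1901 and 38 to 68. The background from all identifiers gave 377 in the CD8αα response, 3 at 0 h, 1 at 24 h, 1 in the difference, 1421 in the averaged response and 1 in the averaged subset difference. The submitters' values gave 15 at 0 h, 6 at 24 h and 35 in the averaged subset difference. No filter gave 111, 390, 6, 17 and 35 in the CD8αβ response, the CD8αα response, at 0 h, at 24 h and in the averaged subset difference. The chip as a block gave 354, 1131, 17 and 42 (both responses, 0 h, averaged subset difference). The first chip alone gave 33, 0, 0, 0, 217 and 19 (both responses, 0 h, 24 h, averaged response, averaged subset difference). The brightest identifier per gene, added after the data were seen, gave 22 at 0 h, 16 at 24 h and 44 in the averaged subset difference. A block for the replicate number gave 2296, 3130, 192, 85, 4467 and 351 (both responses, 0 h, 24 h, both averages). Same-numbered arrays deviated together with r of 0.532 to 0.698 over 6 pairs of groups, but there are only 2 numbers and no label says what they share. With that block every listed gene's call within a subset was kept, and genes named as not called passed, Csf2 in both subsets (adjusted p = 0.00478 and 0.00354) and Ifng, Irf1 and Irf8 in CD8αβ IEL (0.0291, 0.0096 and 0.0154). Changes of members that were not called turned sign under several settings. Cish became 0.12 (CD8αβ response), −0.14 (0 h) and −0.013 (averaged subset difference) by median scaling, −0.22 (0 h), −0.026 (24 h) and −0.12 (averaged subset difference) with the chip as a block, and −0.27 and −0.12 (0 h, averaged subset difference) on the first chip alone. On that chip Socs2 became 0.29 in the CD8αα response and the Socs3 difference of responses became 0.59. Socs1 became −0.0072 and −0.0128 in the averaged response and 0.0107 and 0.021 in the averaged subset difference with the background from all identifiers and the submitters' values, and 0.0035 by median scaling. Leaving out 1 array gave, in the CD8αβ response, −0.52 to 0.085 for Socs1, −1.63 to 0.15 for Socs2 and −0.26 to 0.23 for Cish, and in the CD8αα response −0.43 to 0.91, −0.73 to 0.22 and −0.12 to 0.48, where Il2 ranged from −0.16 to 2.34. Between subsets it gave −0.90 to 0.44 for Socs1 and −0.27 to 0.33 for Cish at 0 h, and −0.14 to 0.59 for Socs1 and −1.29 to 0.49 for Socs2 at 24 h. It gave −0.22 to 1.13, −0.40 to 1.37, −0.63 to 0.22 and −0.11 to 0.49 in the difference of responses for Socs1, Socs2, Socs3 and Cish. For Socs1 and Cish it gave −0.32 to 0.35 and −0.071 to 0.23 in the averaged response, and −0.34 to 0.33 and −0.025 to 0.28 in the averaged subset difference. With 2 arrays per group, small changes of Socs1, the dimmest member against background, could not be resolved.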
